A study of Rattus norvegicus with 54 samples.

Results

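*Clock*, *Npas2*, *Per1*, *Per2*, *Per3*, *Cry1*, *Cry2*, *Nr1d1*, *Nr1d2* and *Dbp* code for parts of the circadian clock and, in the case of *Dbp*, for a factor that the clock drives directly. These 10 genes were taken by name. Every probe set whose only gene symbol in the platform annotation is one of them was used, which gave 10 probe sets, 1 per gene, among 15310 probe sets with a single symbol that stand for 14506 genes. RNA from Wistar rats, of the liver or of skeletal muscle of the hind limb, was measured on GeneChip rat gene arrays. The 24 liver arrays cover foetal days 16, 20 and 22 (F16, F20, F22), postnatal days 1 and 4 (P1, P4) and adults at day 90 (P90), with 4 arrays per age. The 30 muscle arrays cover F16, F18, F20, F22, P1 and P4, with 5 arrays per age. No group was treated or carried a genetic change. Foetuses were taken by Caesarean section from killed dams, and the labels call the arrays of a group biological replicates. The sources used here do not say which animals shared a litter or how many gave 1 RNA, so p-values measure the spread between these arrays.

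The rats lived under an automatic light and dark cycle, but the sources used here do not give the hour of sampling. These genes are known for daily rhythms in adult organs, so for every difference below the age of a group and its hour of sampling cannot be told apart. In whole tissue, fewer cells of a type and less RNA per cell cannot be told apart either.

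The clock works as a loop of transcription. CLOCK or its relative NPAS2 pairs with BMAL1 and switches on genes that carry E-boxes, among them the *Per* and *Cry* genes, whose proteins return to the nucleus and silence the same pair. In a second loop the nuclear receptors NR1D1 and NR1D2 (REV-ERB alpha and beta), also driven through E-boxes, repress *Bmal1* at sites called ROREs. DBP is an activator at D-boxes and carries the rhythm on to enzymes and transporters of liver and muscle.

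To show which of these elements lie next to the genes, RefSeq promoter windows of the GRCr8 build (250 bases before to 50 bases after a start site) were searched on both strands. A window was held for 9 of the 10 genes, and *Clock* and *Nr1d1* have a pair of windows each, so that 11 windows were read. The letters searched were CACGTG (E-box), CACGTT (a near E-box, read AACGTG on the other strand), TTATGTAA or TTACGTAA (D-box) and TAGGTCA or TGGGTCA (RORE). The following stretches hold each match in the members and the RORE of *Bmal1*, with the matched letters in capitals.
*Nr1d1* E-box: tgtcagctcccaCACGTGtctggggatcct
*Nr1d1* near E-box: cgcatagagctcAACGTGcccgctgctgga
*Per2* near E-box: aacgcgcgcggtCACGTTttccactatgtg
*Per2* D-box: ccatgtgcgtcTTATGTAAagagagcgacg
*Cry2* near E-box: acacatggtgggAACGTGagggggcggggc
*Bmal1* RORE: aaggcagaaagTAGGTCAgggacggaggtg

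The *Nr1d1* E-box stretch lies at chr10:84229628-84229657 on the minus strand and begins its match 191 bases before one start site, and the near E-box, at chr10:84231969-84231998 on the minus strand, begins 174 bases before the other. The *Per2* stretches lie at chr9:99497038-99497067 on the minus strand (62 bases before the start) and at chr9:99497167-99497196 on the minus strand (192 bases before it). That of *Cry2* lies at chr3:98860632-98860661 on the minus strand (212 bases before the start), and that of *Bmal1* at chr1:176766301-176766330 on the plus strand (16 bases before it). Of all 33469 promoter windows, 6.42% hold the E-box letters, 4.83% the near E-box, 1.01% a D-box and 6.6% a RORE. Of the 11 member windows these were 1, 3, 1 and 0. The windows of *Clock*, *Npas2*, *Per1*, *Per3*, *Nr1d2* and *Dbp* hold none of these letters, which says nothing of sites farther off, and a match is a description of the sequence only.

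Values are log2 after robust multi-array average (RMA); fold changes are given where a difference is large. Each tissue was normalised apart, and levels were compared within a probe set and within a tissue only. Changes are contrasts of a limma fit over the 6 ages of a tissue, given with their standard error (SE), and p-values are adjusted after Benjamini and Hochberg over all 15310 probe sets, with 0.05 as the threshold. Medians of single arrays ran from 7.06 to 7.16 (liver) and from 7.98 to 8.07 (muscle). All 8 hepatocyte markers of the list (among them *Alb* and *Ttr*) lay above the array median at each age of liver, and all 8 skeletal muscle markers (among them *Ckm* and *Acta1*) did so at each age of muscle except F16, when 7 did. In the F22 liver, the muscle markers had a mean log2 value from 6.90 in the lowest to 8.93 in the highest array. In muscle, the hepatocyte markers had a mean log2 value from 6.82 to 9.25 over the F16 arrays and from 7.40 to 9.70 over the P4 arrays. At both ages 4 of the 8 lay above the array median. Also in muscle, the 4 keratinocyte markers had a mean log2 value from 8.59 to 9.50 over the F16 arrays. Over the F22 arrays this mean ran from 12.17 to 12.82, and all 4 lay above the array median. The mean of the 8 skeletal muscle markers ran from 12.25 to 12.68 over the same F22 arrays. The part of keratinocytes in the RNA was not tested.

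5 arrays stood apart from their groups over all probe sets: P1 replicate 1 in liver, and F16 replicate 5, F20 replicates 4 and 5 and F22 replicate 5 in muscle. The liver array matters most here. All 10 members had a P1 replicate 1 value outside the range of the other 3 P1 arrays, 7 above it and 3 below, beside 64.7% of all probe sets. In 4 of the 10 members it differed from the mean of the others by at least 0.5, as it did in 9.93% of all probe sets. *Dbp* measured 8.35, 9.74, 9.52 and 9.43 in P1 replicates 1 to 4, and *Per1* measured 9.60, 8.24, 9.12 and 8.16. The value of *Dbp* in replicate 1 lay below the lowest F22 array (8.42), while that of *Per1* was the highest of all 24 liver arrays. *Bmal1*, which is no member but the partner of CLOCK, measured 9.62, 8.41, 8.91 and 8.81. In the description field of the labels, the array name of this replicate ends in a number, as do those of the other liver ages, while the names of replicates 2 to 4 end in a letter, a difference that the sources used here leave without an account. Many results that rest on these 5 arrays are given with and without them, and the others with all arrays only. Without P1 replicate 1 the members that rose in liver went from 2 to 3 (F16–F20) and from 1 to 3 (F20–F22). Without the 4 muscle arrays the members that fell from F20 to F22 went from 1 to 0.

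**Figure D1:**
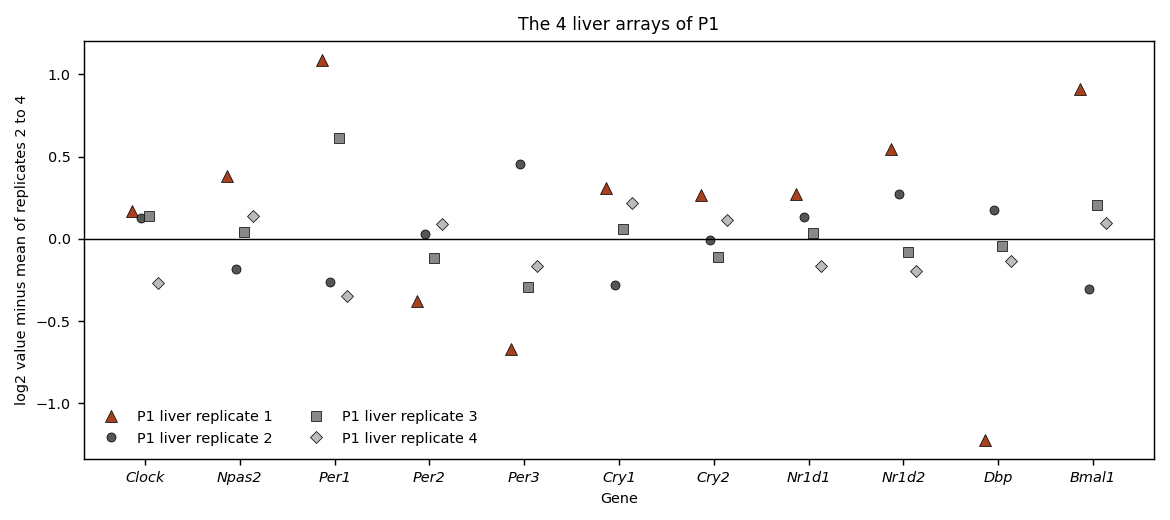
The 4 liver arrays of P1 for the 10 members and *Bmal1*, each as log2 value minus the mean of replicates 2 to 4 (y axis). Replicate 1 (triangles) lay 1.22 below that mean in *Dbp* and 1.09 above it in *Per1*, and outside the other 3 arrays in every gene drawn.

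Over the 6 ages, 10 of the 10 members differed in liver (moderated F-test of limma, beside 84.3% of all probe sets) and 9 of 10 in muscle (beside 75.0%). *Cry1* in muscle was the exception. From F16 to P4, 9 members rose in liver, where 23.1% of all probe sets rose, and 1 fell, *Cry1*, where 35.0% fell. In muscle 7 rose (26.7% of all) and 1 fell, *Dbp* (35.0% of all), a call lost in 1 fit of all 54 arrays (adjusted p of limma 0.18). Marker lists moved over the same span. In liver all 8 hepatocyte (median 0.56) and all 7 macrophage markers (median 1.66) rose. All 7 erythroid probe sets (median -1.20) and all 7 cell cycle markers (median -1.38) fell. The 7 erythroid probe sets stand for 6 genes, and the 2 of *Rhag* had the same change in every contrast. From F16 to P4 the median change of the members was 1.06 in liver and 0.64 in muscle, and that of all probe sets was -0.03 and -0.04.

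**Figure D2:**
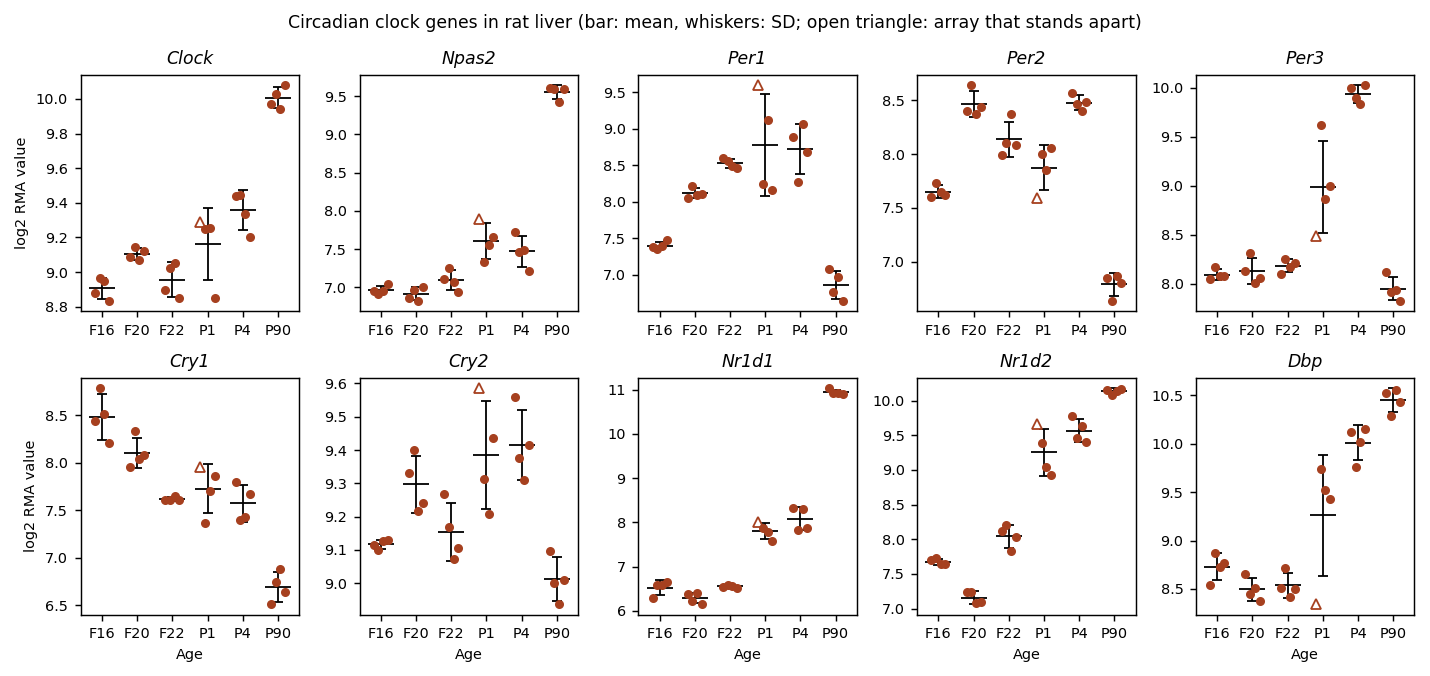
Log2 RMA values (y axis) of the 10 members in each of 24 liver arrays by age (x axis), with the mean (bar) and SD (whiskers) of 4 arrays and P1 replicate 1 as an open triangle. *Clock*, *Npas2*, *Nr1d1*, *Nr1d2* and *Dbp* had their highest mean at P90, while *Per1*, *Per2*, *Per3* and *Cry1* had their lowest mean there.

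Of the activators, *Npas2* rose in liver after birth and again up to the adult. The values were 7.11, 7.26, 7.07 and 6.94 at F22, 7.90, 7.33, 7.56 and 7.66 at P1 and 9.61, 9.59, 9.42 and 9.59 at P90. Every P1 array lay above every F22 array, and every P90 array above all younger ones. The change was 0.51 from F22 to P1 (SE 0.10, adjusted p = 2.5e-04) and 2.08, or 4.23-fold, from P4 to P90 (SE 0.10, adjusted p = 2.4e-14). From P1 to P4 it was -0.14 (SE 0.10, adjusted p = 0.44) and missed the threshold. *Clock* kept a narrower range. Its mean was 8.91 ± 0.06 (SD, n = 4) at F16, 9.36 ± 0.12 at P4 and 10.01 ± 0.06 at P90. It rose by 0.45 from F16 to P4 (SE 0.08, adjusted p = 2.8e-05) and by 0.65 from P4 to P90 (SE 0.08, adjusted p = 2.4e-07). The F22–P1 change of *Clock*, 0.20 (SE 0.08, adjusted p = 0.049), was lost without P1 replicate 1 (0.16, adjusted p = 0.14). It was also lost in most other fits that left out 1 array, 19 of 24 in all (adjusted p of limma up to 0.14).

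The 3 *Per* genes, whose proteins repress the CLOCK pair together with the CRY proteins, did not share 1 course in the liver. *Per1* rose before birth. It measured 7.38, 7.36, 7.39 and 7.48 at F16 and 8.60, 8.56, 8.50 and 8.46 at F22, so that the ages did not overlap. The rise was 1.13, or 2.18-fold (SE 0.21, adjusted p = 1.0e-04). From F22 to P1 its change of 0.25 (SE 0.21, adjusted p = 0.39) missed the threshold, and without P1 replicate 1 it was -0.02. *Per2* was highest at F20 and P4 and dipped between them. Its 4 values were 8.40, 8.64, 8.37 and 8.44 at F20, 7.59, 8.00, 7.85 and 8.06 at P1 and 8.57, 8.47, 8.40 and 8.48 at P4. All P1 arrays lay below all F20 and P4 arrays. *Per2* fell by 0.32 from F20 to F22 (SE 0.09, adjusted p = 0.0063) and rose by 0.60 from P1 to P4 (SE 0.09, adjusted p = 1.2e-04). Its fall of 0.26 between F22 and P1 (SE 0.09, adjusted p = 0.025) was lost without P1 replicate 1 (-0.17, adjusted p = 0.12).

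*Per3* had no change past the threshold in the foetal liver and rose after birth. The means were 8.09 ± 0.05, 8.13 ± 0.13 and 8.18 ± 0.07 at F16, F20 and F22 (SD, n = 4), and the 4 arrays measured 8.49, 9.62, 8.86 and 8.99 at P1 and 9.99, 9.89, 9.83 and 10.02 at P4. Each P1 array lay above the foetal arrays and each P4 array above the P1 arrays. *Per3* rose by 0.81 over birth (SE 0.14, adjusted p = 5.7e-05) and by 0.94 in the next interval (SE 0.14, adjusted p = 1.0e-04), and without P1 replicate 1 these values were 0.97 and 0.78. The 3 *Per* genes fell alike from P4 to P90. *Per1* measured 8.89, 8.28, 9.07 and 8.68 at P4 and 7.08, 6.77, 6.97 and 6.65 at P90, and fell by 1.87 (SE 0.21, adjusted p = 9e-08). *Per2* measured 6.85, 6.64, 6.87 and 6.80 at P90 and fell by 1.69 (SE 0.09, adjusted p = 1.6e-13). *Per3* measured 8.12, 7.92, 7.94 and 7.83 and fell by 1.98, or 3.95-fold (SE 0.14, adjusted p = 2.1e-11). For none of the 3 did a P90 array reach the range of P4.

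*Cry1*, a repressor that acts with the PER proteins, fell in liver before birth and again between P4 and the adult. It measured 8.44, 8.78, 8.52 and 8.20 at F16, 7.61, 7.61, 7.66 and 7.61 at F22 and 6.51, 6.74, 6.88 and 6.63 at P90. The F16 arrays lay above all F22 arrays, and these above all adult ones. It fell by 0.86 from F16 to F22 (SE 0.12, adjusted p = 3.5e-06) and fell by 0.88 from P4 to P90 (SE 0.12, adjusted p = 2.3e-06), with 0.10 over birth (SE 0.12, adjusted p = 0.58). *Cry2* moved less. Its mean was 9.12 ± 0.01 at F16, 9.41 ± 0.11 at P4 and 9.01 ± 0.07 at P90 (SD, n = 4), a rise of 0.30 (SE 0.07, adjusted p = 8.3e-04) and a fall of 0.40 (SE 0.07, adjusted p = 4.2e-05). Its rise of 0.23 from F22 to P1 (SE 0.07, adjusted p = 0.012) was 0.16 without P1 replicate 1 (adjusted p = 0.057).

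*Nr1d1* and *Nr1d2*, the repressors of the second loop, had the largest rises of the 10 members over birth in liver. Without P1 replicate 1 these rises were 1.19 and 1.07, close to those of *Dbp* (1.03) and *Per3* (0.97). *Nr1d1* measured 6.54, 6.59, 6.57 and 6.52 at F22, 8.02, 7.87, 7.77 and 7.57 at P1, 8.33, 7.84, 8.29 and 7.87 at P4 and 11.03, 10.92, 10.93 and 10.91 at P90. Foetal, early postnatal and adult arrays formed 3 separate ranges, while those of P1 and P4 overlapped. The rise was 1.26, or 2.39-fold, over birth (SE 0.11, adjusted p = 3.3e-09) and 2.86, or 7.28-fold, from P4 to P90 (SE 0.11, adjusted p = 1.6e-16). From P1 to P4 *Nr1d1* changed by 0.27 (SE 0.11, adjusted p = 0.11), a value that passed without P1 replicate 1 (0.34, adjusted p = 0.038).

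*Nr1d2* was lowest at F20, with 7.24, 7.24, 7.07 and 7.09, below every F16 array (lowest 7.64). It then measured 8.12, 8.21, 7.82 and 8.03 at F22 and 9.66, 9.39, 9.04 and 8.92 at P1. Each step led to a range of its own. *Nr1d2* fell by 0.52 from F16 to F20 (SE 0.12, adjusted p = 0.0021), rose by 0.89 from F20 to F22 (SE 0.12, adjusted p = 2.1e-06) and by 1.21 over birth (SE 0.12, adjusted p = 2.3e-08). Its rise to the adult was 0.57 (SE 0.12, adjusted p = 2.3e-04). From P1 to P4 its change of 0.31 (adjusted p = 0.085) became 0.45 without P1 replicate 1 (adjusted p = 0.0036).

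*Dbp*, the output factor, had no change past the threshold in the foetal liver in the fit of all 24 arrays. It was higher after birth in all arrays but P1 replicate 1. It measured 8.51, 8.71, 8.42 and 8.50 at F22, 10.12, 9.76, 10.02 and 10.15 at P4 and 10.53, 10.29, 10.56 and 10.43 at P90. The P4 arrays lay above all foetal arrays, and each P90 array lay above the highest P4 array. The F22–P1 rise was 0.73 (SE 0.18, adjusted p = 0.003) with all 4 P1 arrays, whose SD was 0.62, and 1.03 without replicate 1 (adjusted p = 4.1e-08). *Dbp* rose by 0.75 from P1 to P4 (SE 0.18, adjusted p = 0.0098), or by 0.45 without that array, and by 0.44 from P4 to P90 (SE 0.18, adjusted p = 0.048). The last of these calls is near the threshold and was lost in 19 of 24 fits that each left out 1 array (adjusted p of limma up to 0.14). Without P1 replicate 1 this P4–P90 rise was again 0.44, and it passed (adjusted p of limma 4.5e-04).

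By interval, 4 members passed the threshold in liver from F16 to F22, with 3 up (17.9% of all probe sets) and 1 down (30.4%). From F22 to P1, 7 rose (14.8% of all) and 1 fell (21.9%), and without P1 replicate 1 the count of 8 became 5, since *Clock*, *Cry2* and *Per2* were lost. From P1 to P4, 3 rose (4.87% of all) and 0 fell (6.10%), and without P1 replicate 1 the count of 3 became 5, since *Nr1d1* and *Nr1d2* passed. From P4 to P90, 5 rose (*Clock*, *Npas2*, *Nr1d1*, *Nr1d2* and *Dbp*; 28.8% of all) and 5 fell (the *Per* and *Cry* genes; 27.1%). Cell type markers moved in the same intervals. From F22 to P1 all 7 probe sets of erythroid markers fell (median -0.98) and all 7 cell cycle markers fell (median -1.01), while 1 of 8 hepatocyte markers rose. From P4 to P90 all 7 erythroid probe sets (median -4.77) and all 7 cell cycle markers (median -3.09) fell, and 0 hepatocyte markers rose and 2 fell. The mean log2 value of the erythroid list ranged from 11.3 to 11.6 over the P4 arrays and from 6.55 to 6.82 over the P90 arrays. The part of these shifts in the values of the clock genes was not tested.

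**Figure D3:**
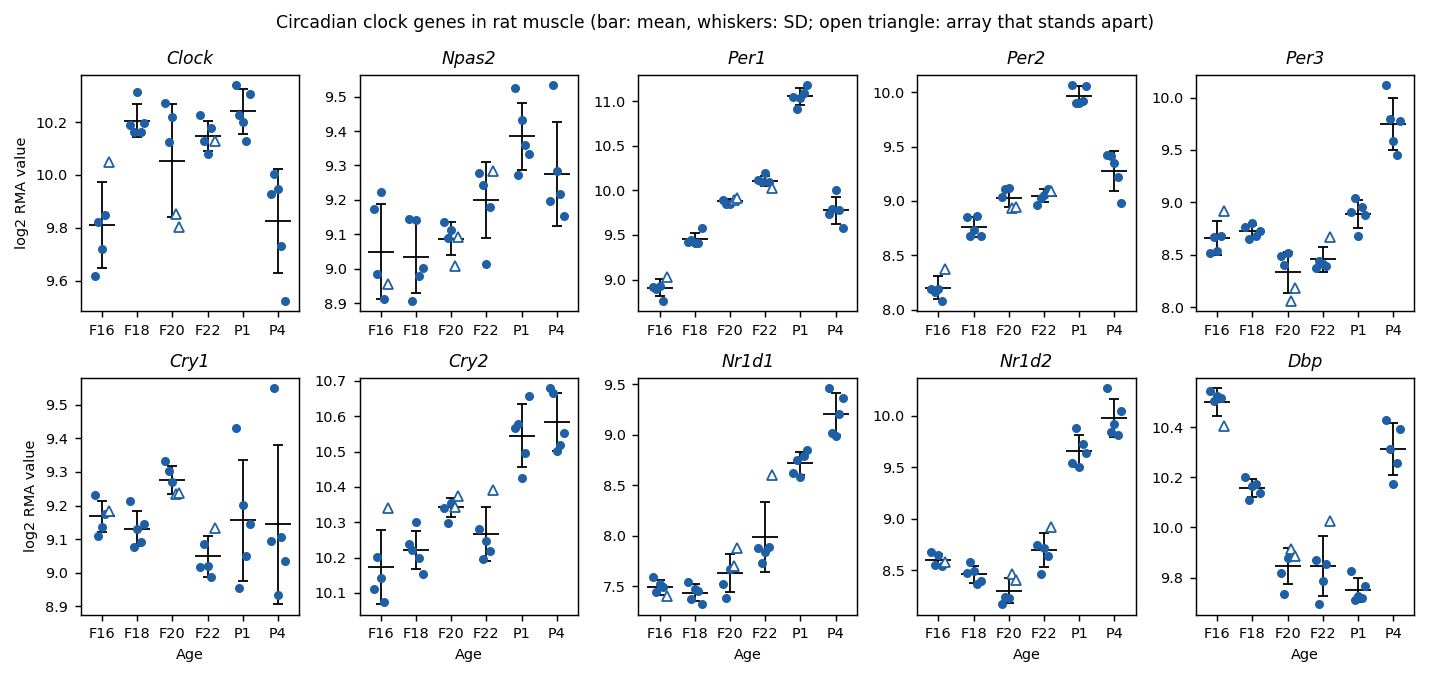
Log2 RMA values (y axis) of the 10 members in each of 30 muscle arrays by age (x axis), with the mean (bar) and SD (whiskers) of 5 arrays and the 4 arrays that stood apart as open triangles. *Per1* and *Per2* peaked at P1, while *Per3*, *Nr1d1* and *Nr1d2* were highest at P4.

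In muscle, *Per1* and *Per2* rose over birth and fell again up to P4. *Per1* measured 10.11, 10.09, 10.19, 10.09 and 10.03 at F22, 11.05, 10.92, 11.04, 11.09 and 11.18 at P1 and 9.74, 9.79, 10.0002, 9.78 and 9.58 at P4. The 5 P1 arrays were the highest of all 30 muscle arrays. *Per1* had risen at each foetal step, by 1.20 from F16 to F22 (SE 0.06, adjusted p = 4.9e-16), and it rose by 0.95, or 1.93-fold, over birth (SE 0.06, adjusted p = 7.9e-12) and fell by 1.28 from P1 to P4 (SE 0.06, adjusted p = 1.7e-15). *Per2* also had its highest level at P1. It measured 8.96, 9.03, 9.06, 9.11 and 9.09 at F22, 10.06, 9.90, 9.90, 9.92 and 10.06 at P1 and 9.42, 9.41, 9.35, 9.22 and 8.98 at P4, and its P1 arrays were again above all others. The change was 0.92 over birth (SE 0.07, adjusted p = 1.8e-10) and -0.69 after it (SE 0.07, adjusted p = 8.5e-09).

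*Per3* went on rising where the other *Per* genes fell. It measured 8.37, 8.44, 8.41, 8.39 and 8.67 at F22, 8.91, 9.04, 8.68, 8.96 and 8.88 at P1 and 10.12, 9.80, 9.59, 9.46 and 9.78 at P4. The P4 arrays lay above all others, and all P1 arrays lay above those of F22. The rise was 0.44 (SE 0.10, adjusted p = 0.0025) and then 0.85 (SE 0.10, adjusted p = 1.7e-07). Between F18 and F20 it had fallen by 0.39 (SE 0.10, adjusted p = 0.0033), a call that was lost without the arrays that stood apart (-0.26, adjusted p = 0.060). Its 2 lowest values of all 30 arrays, 8.06 and 8.18, were those of F20 replicates 4 and 5, which stood apart. The F16–F22 change was -0.21 (adjusted p = 0.085).

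*Cry2* rose in muscle from a mean of 10.27 ± 0.08 at F22 to 10.54 ± 0.09 at P1 (SD, n = 5), a change of 0.28 (SE 0.05, adjusted p = 2.6e-04). The means of *Cry1* lay between 9.05 ± 0.06 (F22) and 9.28 ± 0.04 (F20), and its F-test gave an adjusted p of 0.2. *Nr1d1* measured 7.88, 7.73, 7.84, 7.89 and 8.60 at F22, 8.62, 8.75, 8.58, 8.79 and 8.85 at P1 and 9.46, 9.02, 8.99, 9.20 and 9.36 at P4. Only F22 replicate 5, an array that stood apart, reached the range of P1 among the F22 arrays, and every P4 array lay above every P1 array. The rise over birth was 0.73 (SE 0.12, adjusted p = 4.2e-05), or 0.88 without the arrays that stood apart, and 0.49 in the next interval (SE 0.12, adjusted p = 0.0015). *Nr1d2* measured 8.74, 8.46, 8.72, 8.64 and 8.92 at F22 and 9.54, 9.89, 9.50, 9.73 and 9.64 at P1, with no overlap. It rose by 0.96, or 1.95-fold (SE 0.08, adjusted p = 3.5e-09).

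Muscle *Dbp* fell before birth and came back after it. It measured 10.55, 10.51, 10.52, 10.52 and 10.41 at F16, 9.87, 9.69, 9.79, 9.85 and 10.03 at F22, 9.83, 9.71, 9.73, 9.72 and 9.76 at P1 and 10.43, 10.31, 10.17, 10.26 and 10.40 at P4. The F16 arrays lay above all F22 and P1 arrays, and the P4 arrays again above these. *Dbp* fell by 0.65 from F16 to F22 (SE 0.05, adjusted p = 1.3e-11), changed by -0.10 over birth (adjusted p = 0.24) and rose by 0.56 from P1 to P4 (SE 0.05, adjusted p = 2.5e-09). At P4 it was still 0.19 below F16 (SE 0.05, adjusted p = 0.0029), with an adjusted p of 0.18 for the same change in the limma fit of all 54 arrays. Of the activators, *Clock* rose by 0.39 from F16 to F18 (SE 0.09, adjusted p = 9.2e-04) and fell by 0.41 from P1 to P4 (SE 0.09, adjusted p = 5.5e-04). *Npas2* rose by 0.23 from F16 to P4 (SE 0.07, adjusted p = 0.0068).

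By interval, muscle had 4 members up (21.9% of all probe sets) and 1 down (33.8%) from F16 to F22, 6 up (9.50% of all) and 0 down (8.82%) from F22 to P1, and 4 up (19.2%) and 3 down (14.7%) from P1 to P4. Without the 4 arrays that stood apart no call of the last 2 intervals changed. From F16 to P4, all 8 skeletal muscle, all 4 keratinocyte, all 5 adipocyte and all 7 erythroid marker probe sets rose (medians 2.57, 2.77, 2.23 and 2.02), as did 6 of 7 macrophage markers (median 1.47), and all 7 cell cycle markers fell (median -0.55). Between F16 and F18, when *Clock* rose, 3 of 4 keratinocyte markers (median 2.13) and 7 of 8 muscle markers (median 0.79) rose. From F22 to P1 all 5 adipocyte markers rose (median 1.41), 2 of 8 muscle markers rose and 0 keratinocyte or erythroid markers passed. From P1 to P4 6 of 7 erythroid probe sets rose (median 2.02) and 3 of 4 keratinocyte markers fell. The mean log2 value of the adipocyte list ranged from 7.88 to 8.69 over the F22 arrays and from 8.37 to 10.7 over the P1 arrays. What these cells add to the values of the clock genes was not tested.

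**Figure D4:**
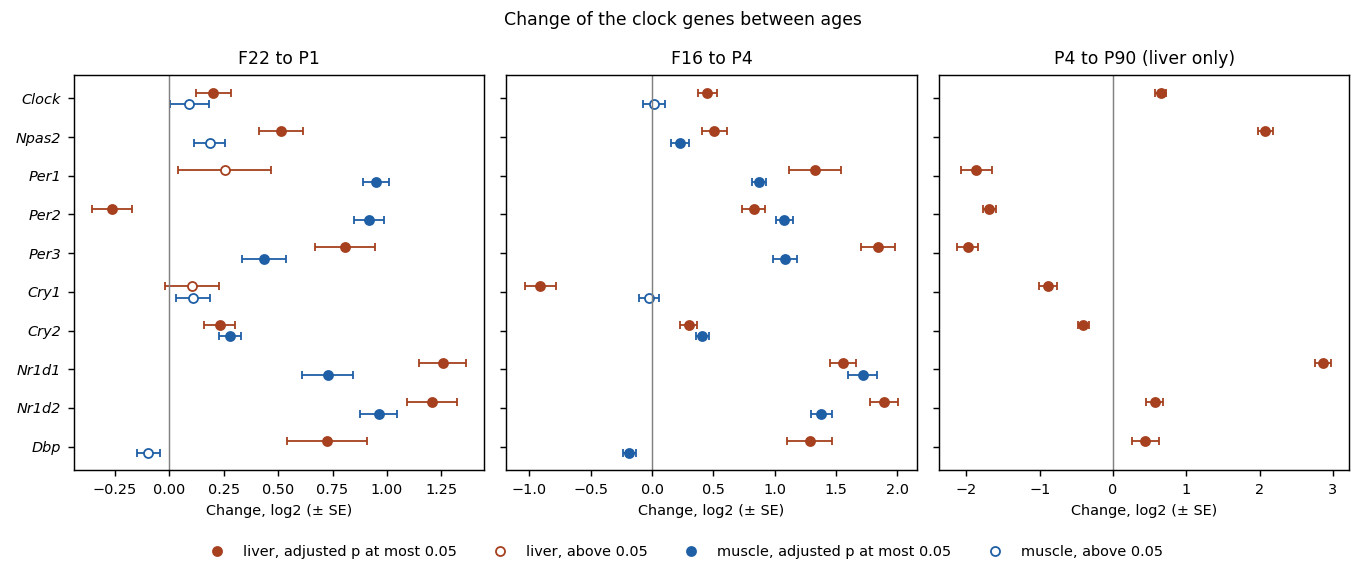
Change of each member in log2 (x axis, ± SE) from F22 to P1, from F16 to P4 and from P4 to P90, in liver (24 arrays) and muscle (30 arrays), filled where limma's adjusted p was at most 0.05. *Per1* and *Per2* rose by 0.95 and 0.92 over birth in muscle, and *Dbp* rose by 0.73 in liver.

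Whether a change differed between tissues was tested in 1 limma fit of all 54 arrays in 12 groups, as the change in liver minus that in muscle. Over birth, 5 of 10 members differed. *Dbp*, *Npas2* and *Nr1d1* changed more upwards in liver (12.5% of all probe sets did) and *Per1* and *Per2* more upwards in muscle (19.5% of all). The largest difference was that of *Per2*, -1.18 (SE 0.11, adjusted p = 1.5e-11). Without the arrays that stood apart it was -1.10 (adjusted p = 6.6e-11). For *Per1* it was -0.70 (SE 0.21, adjusted p = 0.0073) and -0.95 without them. For *Dbp* it was 0.82 (SE 0.18, adjusted p = 3.0e-04) and 1.08 without them. Those of *Nr1d1* (0.53, adjusted p = 0.011) and *Npas2* (0.33, adjusted p = 0.033) were lost without these arrays, with 0.31 and 0.21, and that of *Per3* passed (0.49, adjusted p = 0.0082).

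From F16 to P4, 6 members differed between tissues. 5 changed more upwards in liver (24.9% of all probe sets did): *Dbp* by 1.47 (SE 0.18, adjusted p = 9.6e-10), *Per3* by 0.76 (adjusted p = 1.8e-04), *Nr1d2* by 0.51 (adjusted p = 0.0019), *Clock* by 0.43 (adjusted p = 0.0022) and *Npas2* by 0.28 (adjusted p = 0.044). The call of *Npas2* was lost in 12 of 54 fits that each left out 1 array (adjusted p of limma up to 0.16). *Cry1* was the 1 member that changed more downwards in liver (33.0% of all), with -0.89 (SE 0.15, adjusted p = 8e-07). *Nr1d1*, which rose in both tissues, had a difference of -0.16 (SE 0.17, adjusted p = 0.44). *Per1* and *Per2* missed the threshold with all arrays (adjusted p = 0.056 each) and passed without those that stood apart.

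Of the other genes of the loop, 5 of 11 listed had a probe set with a single symbol: *Bmal1*, *Nfil3*, *Tef*, *Bhlhe40* and *Bhlhe41*. All 5 rose from F16 to P4 in both tissues, beside 23.1% (liver) and 26.7% (muscle) of all probe sets. *Bhlhe41* rose by 0.28 in liver (SE 0.11, adjusted p = 0.024) and by 0.68 in muscle (SE 0.13, adjusted p = 3.0e-05). Its mean log2 value in liver was 5.29, below the median signal of all probe sets there (7.83). No detection values were used, and how near the background it lay in liver was not tested. *Bmal1*, the partner of CLOCK, has the RORE letters shown above in its promoter window, and binding of NR1D1 there was not tested. In liver it rose early, from 7.79 ± 0.17 at F16 to 8.58 ± 0.15 at F20 (SD, n = 4), a change of 0.79 (SE 0.18, adjusted p = 0.0022). *Bmal1* fell by 0.65 from P1 to P4 (SE 0.18, adjusted p = 0.02), a call that was lost without P1 replicate 1 (-0.42, adjusted p = 0.055). Between F22 and P1 its change was 0.20 (adjusted p = 0.43), and -0.03 without P1 replicate 1. In muscle it rose from 7.47 ± 0.11 at F16 to 8.55 ± 0.15 at P4 (SD, n = 5; change 1.08, SE 0.07, adjusted p = 2e-14).

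*Bhlhe40* codes for a repressor at E-boxes and had the largest F16–P4 changes of these 5 genes, 1.58 in liver (SE 0.13, adjusted p = 4.3e-10) and 2.15 in muscle (SE 0.07, adjusted p = 1.9e-20). In muscle its rise was 1.25 between F16 and F18. *Tef*, a relative of *Dbp* that binds the same D-boxes, rose by 1.11 in liver and by 0.67 in muscle. *Nfil3*, a repressor at D-boxes, rose by 1.07 and by 0.55, fell from P1 to P4 in both tissues (-0.44 and -0.47) and rose by 1.25 from P4 to P90. In liver *Tef* changed by -0.12 over that last interval (adjusted p = 0.25) and *Bhlhe41* by -0.12 (adjusted p = 0.35). Over the same interval *Bmal1* rose by 0.46 (SE 0.18, adjusted p = 0.034) and *Bhlhe40* by 1.16 (SE 0.13, adjusted p = 1.1e-07).

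Of 13 measured genes for enzymes and cofactors that act on clock proteins, 1 rose from F16 to P4 in liver and 10 fell, while in muscle 1 rose and 6 fell. Without P1 replicate 1, 11 fell in liver. Of all probe sets, 23.1% rose and 35.0% fell in liver, and 26.7% and 35.0% in muscle. The median change of the 13 genes was -0.40 in liver and -0.14 in muscle. *Usp2*, which removes ubiquitin from clock proteins, was the gene that rose, by 1.38 (SE 0.12, adjusted p = 9.5e-10) in liver and by 2.09 (SE 0.11, adjusted p = 9.1e-16) in muscle. *Timeless*, also a replication fork protein, changed by -1.19 in liver and -0.83 in muscle. *Btrc*, part of the ligase that marks PER for breakdown, changed by -1.11 and -0.22, and *Nono*, for a nuclear RNA-binding protein, by -0.98 and -0.62. Of 12 genes with daily rhythms downstream of the clock, 11 rose in liver and 1 fell, and in muscle 8 rose and 2 fell, with medians of 1.46 and 0.41, beside the same shares of all probe sets. Without the arrays that stood apart, 7 rose and 2 fell in muscle. *Pdk4*, an inhibitor of pyruvate dehydrogenase, rose by 4.09 in liver and 3.17 in muscle. *Cyp7a1*, the rate-limiting enzyme of bile acid synthesis, rose by 2.47 and *Avpr1a*, a vasopressin receptor, by 2.13 in liver. *Pnpla2*, a triglyceride lipase, rose by 2.90 in muscle. The liver gene that fell, *Wee1*, codes for a kinase that delays mitosis and changed by -1.07; it was named after its value was seen.

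The last comparison asked whether arrays of 1 age that were high in *Dbp* were also high or low in the other 9 members. Each value was set against the mean of its group, and the 18 relations (9 genes in 2 tissues) were tested with 100000 permutations within groups, 2-sided. Where the 2 arrays farthest from the median of *Dbp* were left out, the group means still held them. Where the arrays that stood apart were left out, the means were taken again. In muscle, *Nr1d1* went with *Dbp* over 30 arrays (Pearson's r = 0.80, permutation p = 9e-05, adjusted over the 18 relations 0.0016; Spearman's rho = 0.74, permutation p = 1.2e-04, adjusted 0.0022). Without the 2 arrays farthest from the median of *Dbp*, F22 replicates 2 and 5, r was 0.69. Without the 4 arrays that stood apart it was 0.71, and its permutation p adjusted over the 18 relations was 0.07, which missed the threshold. *Nr1d2* in muscle had an r of 0.54 and a rho of 0.43 (permutation p = 0.017 and 0.041, adjusted 0.15 and 0.33). *Per1* in muscle ran the other way, with an r of -0.44 and a rho of -0.35 (permutation p = 0.031 and 0.081, adjusted 0.18 and 0.33).

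In liver none of the 9 relations passed over 24 arrays (smallest permutation p 0.082, that of *Per3*, adjusted 0.28). For *Per3* r was 0.75 and rho was 0.45 (permutation p = 0.061, adjusted 0.33), and without the 2 farthest arrays, P1 replicates 1 and 2, r was 0.19. For *Nr1d1* in liver r was -0.04 with all 24 arrays and 0.60 without P1 replicate 1 (permutation p adjusted over the 18 relations 0.90 and 0.13). The sign of this r thus turned on 1 array. Without that array it also turned for *Nr1d2* (-0.35 to 0.56), *Per1* (-0.51 to 0.24), *Cry2* (-0.43 to 0.14) and *Clock* (-0.25 to 0.045). It did not turn for *Npas2*, *Per2*, *Per3* and *Cry1*, and r for *Per3* was then 0.49. None of these passed after adjustment.

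**Figure D5:**
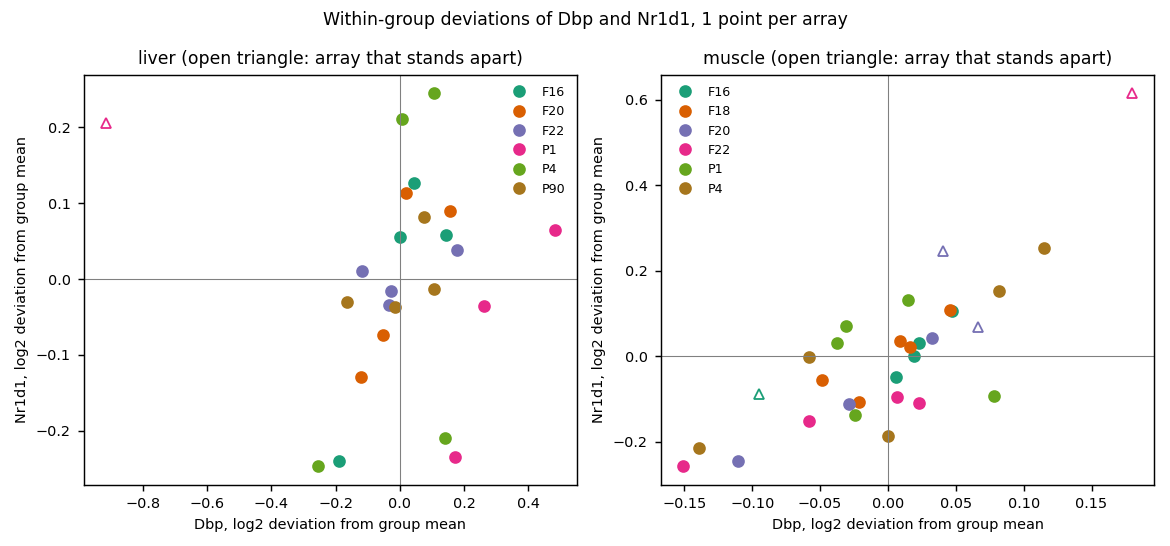
Deviation of *Nr1d1* (y axis) against that of *Dbp* (x axis) from the group mean in log2, 1 point per array, in liver (24) and muscle (30), coloured by age, with arrays that stood apart as open triangles. Over the muscle arrays r was 0.80, and P1 replicate 1 lies alone at the left of the liver panel.

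Among all 15309 other probe sets, the 5 whose deviations were most like those of *Dbp* in muscle were *Nr1d1* (r = 0.80), *Tspan13*, *Spryd4*, *Car14* and *Tmem39b* (each 0.76), and a member thus led this list. The 5 least like it were *Or6c6i* (-0.78), *Rrm1*, *Nsun2*, *Aggf1* and *Oxct1* (-0.70 to -0.68). In liver the highest values were those of 3 probe sets of *Hspa8* (0.93, 0.91 and 0.90), *Crot* (0.92) and *Dctn2* (0.91), and the lowest those of *Cth* (-0.91), 2 probe sets of *Fabp5* (-0.91), *Sqle* (-0.91) and *Srsf5* (-0.90). The deposited values of the *Fabp5* probe sets are the same in every array, and P1 replicate 1 carries the largest deviation of *Dbp* in these 24 arrays. *Tef* ranked 217th and *Per3* 328th from the top in liver, and *Bmal1* ranked 15048th. These r values are descriptions over 24 or 30 arrays that share their groups and carry no test.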

How the data were processed

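The 10 genes, the lists and the tests were chosen with earlier results of these data known. The deposited table holds log2 values that the authors obtained by RMA (background correction, quantile normalisation and median polish). Affymetrix Expression Console is named in the submitters' processing notes, without a version in the sources used here. RMA compresses changes near the background, and no detection values were used. The number of arrays (4 or 5 per group) limits the precision. Probe sets were named through the platform annotation: of 29214, 15310 had 1 symbol, 323 several and 13581 none, and only the first were used. Groups and replicate numbers come from the labels.

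Linear models (limma 3.58.1, R 4.3.3, lmFit and eBayes) were fitted to the 24 liver arrays and to the 30 muscle arrays with the 6 ages as groups, and to all 54 arrays in 12 groups for differences between tissues. P-values were adjusted after Benjamini and Hochberg over 15310 probe sets. The fit was tested on simulated data. Permutations used numpy 2.4.6 in Python 3.11.15.

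The text names all members, all measured loop genes, and up to 4 genes of each of the lists of modifiers and outputs with the largest absolute F16–P4 or F22–P1 change past the threshold. For likeness it names the 5 probe sets with the highest and the 5 with the lowest r with *Dbp* in each tissue. Of 39 other clock genes listed, 9 had no probe set with 1 symbol. Alternatives were an unadjusted p of at most 0.05, bright probe sets only (mean above the median signal of all probe sets), a trended and robust prior, quantile normalisation again, centring on the array median, the replicate number as a block, array weights, the mean over probe sets of a gene, the 5 ages without P90 or F18, 1 fit of all arrays, and leaving out arrays.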

Additional observations from a re-analysis of the deposited data

Results flagged for a closer look

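In 120 groups of 4 or 5 arrays (10 members, 2 tissues, 6 ages), 8 had an array whose gap to its nearest neighbour exceeded the 95% critical value of Dixon's test, which chance does in about 1 of 20 groups. In liver these were *Clock* in P1 replicate 4 (8.85, the others 9.25 to 9.29), *Npas2* in P90 replicate 3 (9.42, the others 9.59 to 9.61) and *Cry1* in F22 replicate 3 (7.66, the others 7.61 to 7.61). In muscle they were *Clock* (10.31) and *Per1* (9.58) in F18 replicates 3 and 5, *Cry1* in P4 replicate 2 (9.55), and *Per3* (8.67) and *Nr1d1* (8.60, the others 7.73 to 7.89) in F22 replicate 5, an array that stood apart over all probe sets. *Dbp* of P1 replicate 1 in liver was not among them.

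The change differed between tissues in limma's test of the difference (liver minus muscle) for 6 members from F16 to P4: *Dbp* (1.47), *Per3* (0.76), *Nr1d2* (0.51), *Clock* (0.43), *Npas2* (0.28) and *Cry1* (-0.89). From F22 to P1 it differed for 5: *Dbp* (0.82), *Nr1d1* (0.53), *Npas2* (0.33), *Per1* (-0.70) and *Per2* (-1.18). The hour of sampling of each group is not known here, and age and hour cannot be told apart in these differences.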

How the results depend on the processing

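Over 12 kinds of alternative, no member that passed the threshold changed direction in the intervals covered. Not covered were F16–F20 and F20–F22 in liver and F16–F18, F18–F20 and F20–F22 in muscle. These were set only against the fit without the arrays that stood apart. The count of members called from F22 to P1 in liver fell from 8 to 5 without P1 replicate 1, which is also the setting without the arrays that stood apart, and from P1 to P4 it rose from 3 to 5. That count, *Bmal1* P1–P4 in liver (-0.42) and *Per3* F18–F20 in muscle (-0.26), whose calls were lost, were set against this alternative after seeing the data. With bright probe sets only, 3 of 7 members tested differed between tissues from F22 to P1, in place of 5 of 10. Leaving out 1 array at a time gave 5 to 8 members for liver F22–P1, 9 to 10 for P4–P90, 4 for F16–F22 and 10 for F16–P4 and for the 6 ages. In muscle it gave 5 to 6 for F16–F22, 6 to 7 for F22–P1, 8 for F16–P4 and 9 to 10 for the 6 ages. Between tissues it gave 5 to 8 for F16–P4 and 4 to 5 for F22–P1. The 1 relation with *Dbp* that passed became 0 without the arrays that stood apart, an alternative chosen after seeing the data: at an unadjusted permutation p under 0.05 there were 5 of 18, and 3 with all arrays.

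Values that changed sign all missed the threshold in both settings. With centring on the array median *Clock* F16–P4 in muscle was -0.043, and with array weights -0.00066. *Cry2* F22–P1 between tissues was 0.026 with quantile normalisation again. *Per1* P1–P4 in liver was 0.095 with array weights and 0.22 without the arrays that stood apart, which also gave -0.030 for *Bmal1* and -0.018 for *Per1* F22–P1 in liver. Leaving out 1 array at a time gave, from the lowest to the highest, -0.030 to 0.37 (*Bmal1* F22–P1), -0.018 to 0.46 (*Per1* F22–P1), -0.26 to 0.22 (*Per1* P1–P4), -0.00071 to 0.064 (*Cry2* F16–F22), -0.030 to 0.096 (*Cry2* P1–P4) and -0.049 to 0.073 (*Nr1d1* F16–F22) in liver. In muscle it gave -0.033 to 0.091 (*Clock* F16–P4), -0.12 to 0.029 (*Cry1* F16–P4) and -0.11 to 0.056 (*Cry1* P1–P4). Between tissues F22–P1 gave -0.082 to 0.11 (*Cry1*) and -0.11 to 0.012 (*Cry2*). The cause was not tested.

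Calls near the threshold were lost when 1 array was left out (limma's adjusted p up to 0.14 for *Clock* F22–P1 in 19 of 24 fits, 0.14 for *Dbp* P4–P90 in liver in 19 of 24, 0.13 for *Per2* F22–P1 in liver in 3 of 24, 0.057 for *Cry2* F22–P1 in liver in 1, and 0.16 and 0.13 for *Npas2* between tissues, F16–P4 in 12 and F22–P1 in 8 of 54). The call of *Dbp* P4–P90 held without P1 replicate 1 (limma's adjusted p 4.5e-04).

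Same-numbered liver arrays had a mean r of 0.00175 (lowest -0.20, highest 0.28), beside -0.00055 for pairs with different numbers. For muscle the mean r was -0.02 (lowest -0.40, highest 0.36), beside 0.0043. The best match was an array of the own number for 10 of 24 liver and 6 of 30 muscle arrays. A mean over all pairs cannot show whether some numbers share a litter or a batch, which was not tested. With the replicate number as a block, 3 calls of 110 changed: *Dbp* P4–P90 in liver was lost (adjusted p of limma 0.056), and *Nr1d2* P1–P4 in liver (0.049) and *Per1* F16–P4 between tissues (0.038) were gained. The block gave 9 members for liver P4–P90 and 7 between tissues for F16–P4, in place of 10 and 6.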
